A study of Homo sapiens with 31 samples.

Results

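The heterogeneous nuclear ribonucleoprotein (HNRNP) genes and the serine/arginine-rich splicing factor (SRSF) genes were followed in a B-cell precursor leukaemia line after knockdown (KD) of XIAP, an inhibitor of caspases. Members were taken by name: each row of the count table whose Ensembl identifier belongs to a protein-coding gene with a symbol that begins with HNRNP or reads SRSF and a number. The rule found 38 members, 26 HNRNP and 12 SRSF, among 30667 genes in the table, of which 14952 were protein coding. The annotation lists 39 such genes, and the read-through gene HNRNPUL2-BSCL2 was not among the rows used here.

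The cells were NALM-6, a human line of B-cell precursor acute lymphoblastic leukaemia, grown in vitro after lentiviral transduction as the sample labels have it, whereas the design text of the series places them in mouse bone marrow. The 4 constructs carried either a control hairpin (sh-CTRL) or a hairpin against XIAP (sh-XIAP), each placed in a microRNA backbone within the transcript of a red fluorescent protein and driven by the EF1a or the viral SFFV promoter; in the study's terms the KD was moderate with EF1a/sh-XIAP and strong with SFFV/sh-XIAP. Transduced cells of all groups thus carried a vector, a marker and a hairpin, and no untransduced sample was used here. In the study's competitive system, cells with the control hairpin also carried a blue marker and cells with the XIAP hairpin a green one. The sample titles do not state whether this held here. If it did, hairpin and colour marker cannot be told apart. RNA was sampled 4, 10 and 13 days after transduction, with 3, 3 and 3 samples of EF1a/sh-CTRL, 2, 2 and 3 of EF1a/sh-XIAP, 3, 2 and 2 of SFFV/sh-CTRL, and 2, 3 and 3 of SFFV/sh-XIAP on these days, 31 in all. The labels do not state whether the samples of a group came from separate transductions, so p-values measure the spread between these samples, which may be technical.

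Each library counted unique molecular identifiers (UMIs) at the 3′ ends of transcripts and held between 312852 and 1153668 UMIs (median 603822). Levels are given in CPM, the share of a library's UMIs scaled to a fixed total. Because each transcript end is counted as 1 molecule whatever the length of the RNA, levels of different genes were compared without division by length. XIAP itself had only 2 to 14 UMIs per library. On days 10 and 13 it was at 10.2 ± 4.72 CPM (SD, n = 4) in the strong-KD control and 8.86 ± 3.06 CPM (n = 6) in the strong KD, with overlapping ranges. Pooled, these libraries held 19 XIAP UMIs among 1.80e+06 in the control and 39 among 4.49e+06 in the strong KD. No large fall of XIAP RNA was thus seen. The study measured the strength of the KD as protein, and the RNA of the targeted gene could not check the labels. All 14 B-lineage markers of a fixed list had UMIs, with a summed level of 5972 to 6840 CPM per library, and 6 of 8 T-cell markers had none (CD3D, CD3E, CD5, CD7, TRBC1 and TRBC2). Of the myeloid markers 7 of 8 had UMIs, with a sum of 3.65 to 38.4 CPM per library, as had 3 of 5 erythroid markers (up to 5.29 CPM) and 3 of 6 stromal markers (up to 11.5 CPM).

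HNRNP proteins coat nascent RNA and often keep exons or splice sites from being used, whereas SR proteins bind exonic enhancers and recruit the spliceosome, so that the balance between them sets many alternative exons. Both families also act in RNA export, stability and translation. Many members limit their own level through poison exons, whose inclusion sends the transcript to decay; a 3′ count records the amount of RNA and not which exons it holds.

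The members together took 1.48% of all UMIs, 1.15% for HNRNP and 0.333% for SRSF. HNRNPA2B1, a nuclear RNA-binding protein that also sorts RNA for transport, was the most abundant, at 2348 ± 99.8 CPM (SD over 31 libraries, range 2078 to 2524), and ranked 28 of all genes in the table. HNRNPA1, which antagonises SR proteins at splice sites, followed at 1078 ± 51.8 CPM (925 to 1201), and no library of HNRNPA1 reached the lowest level of HNRNPA2B1. HNRNPU, a nuclear scaffold protein that binds chromatin and RNA, had 814 ± 51.8 CPM. HNRNPC, which binds uridine tracts and masks cryptic exons, had 782 ± 38.1 CPM, and HNRNPK, a binder of cytidine-rich RNA, had 765 ± 46.5 CPM. The ranges of the last 3 genes overlapped with each other, and the lowest HNRNPA1 library lay below the highest HNRNPU library, at 961 CPM.

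The SRSF genes lay lower. SRSF3, the smallest SR protein and a factor of mRNA export, led with 482 ± 39.3 CPM (399 to 546). SRSF7, a close relative of SRSF3, had 401 ± 30.9 CPM, SRSF11 had 401 ± 29.6 CPM, SRSF1, the founding member of the family, had 391 ± 27.9 CPM, and SRSF2, an SR protein of nuclear speckles, had 385 ± 31.3 CPM. The last 4 could not be ordered, since their ranges covered each other almost fully. At the other end, HNRNPCL3 had 8 UMIs in all libraries together, SRSF12 had 3, and HNRNPLL, a splicing factor of activated lymphocytes and plasma cells, had 1, too few for any comparison. These 3 were below the filter, which asked for a level over 1 CPM in 1/3 of the samples or more, and the other 35 members, 24 HNRNP and 11 SRSF, were tested.

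Over all 31 libraries the coefficient of variation of the 28 members with a mean of 100 CPM or more ran from 4.25% (HNRNPA2B1) to 11.5% (HNRNPH2), with a median of 7.43%; it was 10.8% in the median of all 1927 genes above that level. Within groups, the spread per degree of freedom was 1.03 times that of counting alone in the median member and 1.17 times in the median gene. Beyond the 95% limit of counting error lay 6 of the 28 members (21.4%) and 20.6% of the 1927 genes. The coefficient of variation falls with the level of a gene, and the 2 sets were not matched on level. The largest such ratios were those of HNRNPA2B1 (2.52), SRSF3 (2.08) and HNRNPAB (2.06). HNRNPM had the smallest, 0.407.

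The summed level of the HNRNP genes was 11407 ± 300.1 CPM and that of the SRSF genes 3308 ± 111 CPM over the 31 libraries. On days 10 and 13 together the HNRNP sum had its lowest, median and highest library at 11104, 11832 and 11960 CPM with SFFV/sh-XIAP (n = 6), at 11040, 11323 and 11655 CPM with SFFV/sh-CTRL (n = 4), at 10994, 11176 and 11516 CPM with EF1a/sh-XIAP (n = 5), and at 11123, 11279 and 11671 CPM with EF1a/sh-CTRL (n = 6). At day 13 the 3 strong-KD libraries, at 11658, 11790 and 11873 CPM, lay above all others of that day, and at day 10 they spanned the full range, because the library at 11104 CPM was the lowest of that day. That library was also the shallowest of the series, with 312852 UMIs. The SRSF sum showed less of this order: it was 3360 ± 150 CPM with SFFV/sh-XIAP and 3270 ± 96.4 CPM over the 15 libraries of the other constructs, and the ranges overlapped. The strong-KD range without that library was 11658 to 11960 CPM. At day 4 the HNRNP sums of all constructs overlapped, with group means of 11169 to 11476 CPM. The sums moved with depth: the HNRNP sum had a median of 11235 CPM in the 10 shallowest and 11651 CPM in the 10 deepest libraries, and 3 of the 10 deepest but 1 of the 10 shallowest were strong-KD libraries of days 10 and 13. The part of depth in the sums was not tested.

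**Figure D1:**
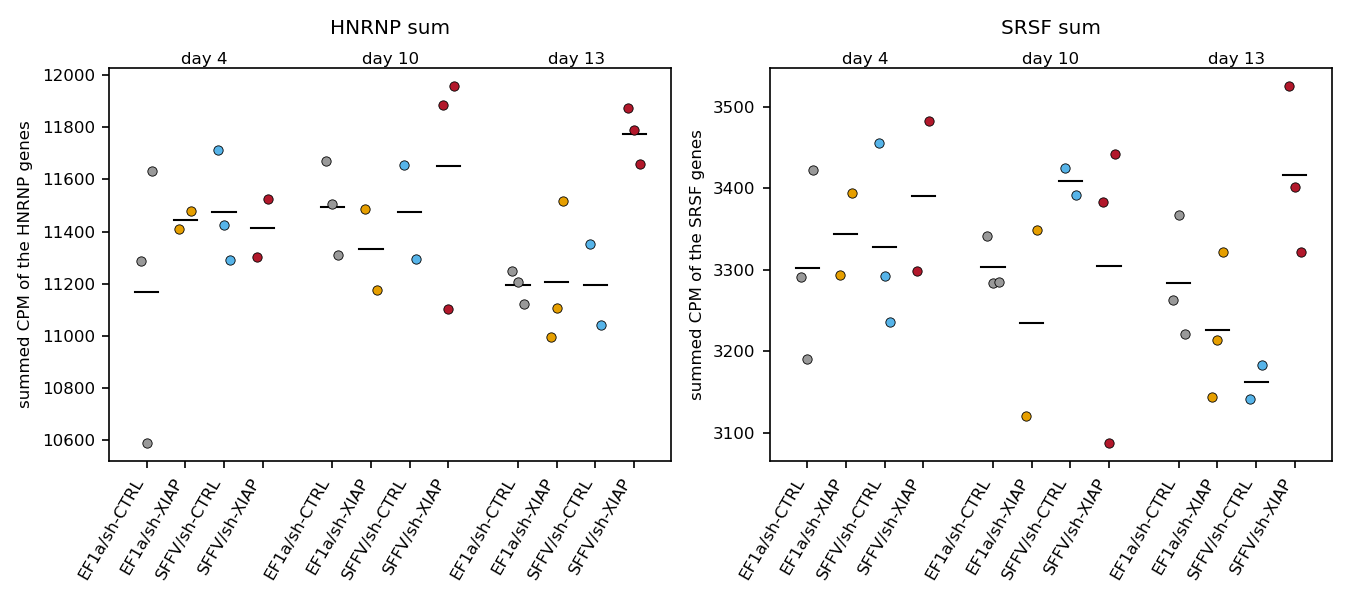
Summed CPM of the 26 HNRNP genes (left) and of the 12 SRSF genes (right) in each library, by day and construct (points, libraries; bars, group means; the vertical axes do not begin at 0). The HNRNP sum of SFFV/sh-XIAP lies between 11104 and 11960 CPM on days 10 and 13, where 1 day 10 library is far below the other 5.

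The first question was what the strong KD did to these genes against its own control on days 10 and 13. None of the 35 tested members passed the threshold with limma-voom (Benjamini-Hochberg adjusted p of at most 0.25, the study's own), while 14 of 17683 genes did (0.0792%). At an unadjusted p under 0.05, 2 members were higher, where 5.59% of all genes had such a p, and edgeR and DESeq2 called none. HNRNPR had a log2 fold change of 0.16 (SE 0.0578, adjusted p = 0.717, limma), from 432 ± 33.8 CPM (n = 4) to 483 ± 23.4 CPM (n = 6; exact permutation test, two-sided and unadjusted, p = 0.0238), and HNRNPDL, a relative of HNRNPD, was close to it at 0.16 (SE 0.0593, adjusted p = 0.717). HNRNPR was picked for the permutation test from the fit of these same libraries, and the test pooled both days, so it is no independent support. Members for each permutation test below were picked in the same way. In the other direction the smallest p belonged to HNRNPH2, a binder of G-rich RNA encoded on the X chromosome, with -0.10 (SE 0.125, adjusted p = 0.964). Its levels were 124 ± 23.3 CPM in SFFV/sh-CTRL and 113 ± 14.1 CPM in SFFV/sh-XIAP, with overlapping ranges (exact permutation test, two-sided, p = 0.367).

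The intervals show how large a change could still be hidden. For all 28 members above 100 CPM, the 95% interval of the strong-KD fold change lay within -0.35 and 0.32 on the log2 scale, and that of the moderate KD within -0.29 and 0.35. The median fold change of the 35 members under strong KD was 0.04, with 23 above 0, beside a median of -0.02 over all genes tested. With log2 total UMIs as a covariate the members' median was -0.01 and 14 were above 0. In the fits that left out 1 sample the members' median ran from 0.04 to 0.08, with 22 to 29 above 0. In these fits 4 to 7 members had an unadjusted p under 0.05, which 5.59% of all genes had in the full fit. All these fits also took another reference library for the normalization than the full fit. Over the 21 possible reference libraries, tried after the data were seen, 2 to 7 members had such a p and 23 to 25 were above 0.

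The moderate KD also left no member past the threshold, beside 3 of all genes tested (0.017%); 1 member had an unadjusted p under 0.05 (4.63% of all genes) and edgeR and DESeq2 called none. That member was HNRNPH3, a short relative of HNRNPH1, with a log2 fold change of 0.18 (SE 0.0803, adjusted p = 0.992). Its level was 280 ± 26.6 CPM (n = 5) with EF1a/sh-XIAP and 249 ± 29.6 CPM (n = 6) with EF1a/sh-CTRL, and 3 of the 6 control libraries lay above the lowest KD library (exact permutation test, two-sided, p = 0.106). SRSF7 had the smallest p on the lower side, at -0.12 (SE 0.069, adjusted p = 0.992), with 366 ± 33.6 CPM against 402 ± 31.5 CPM (exact permutation test, two-sided, p = 0.0996). The members' median was -0.0037, with 17 above 0, beside 0.0086 over all genes.

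The difference between the strong and the moderate KD effect was tested in the same fit, and no member passed (1 gene in all, 0.00566%; 2 members and 5.06% of all genes had an unadjusted p under 0.05, and edgeR and DESeq2 called none). HNRNPR had the smallest p for a larger effect under strong KD, with a difference of 0.20 (SE 0.0807, adjusted p = 0.964, limma). HNRNPH3 had the smallest p for a lower one, with -0.23 (SE 0.118, adjusted p = 0.964). Intervals of all 28 abundant members lay within -0.47 and 0.38.

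**Figure D2:**
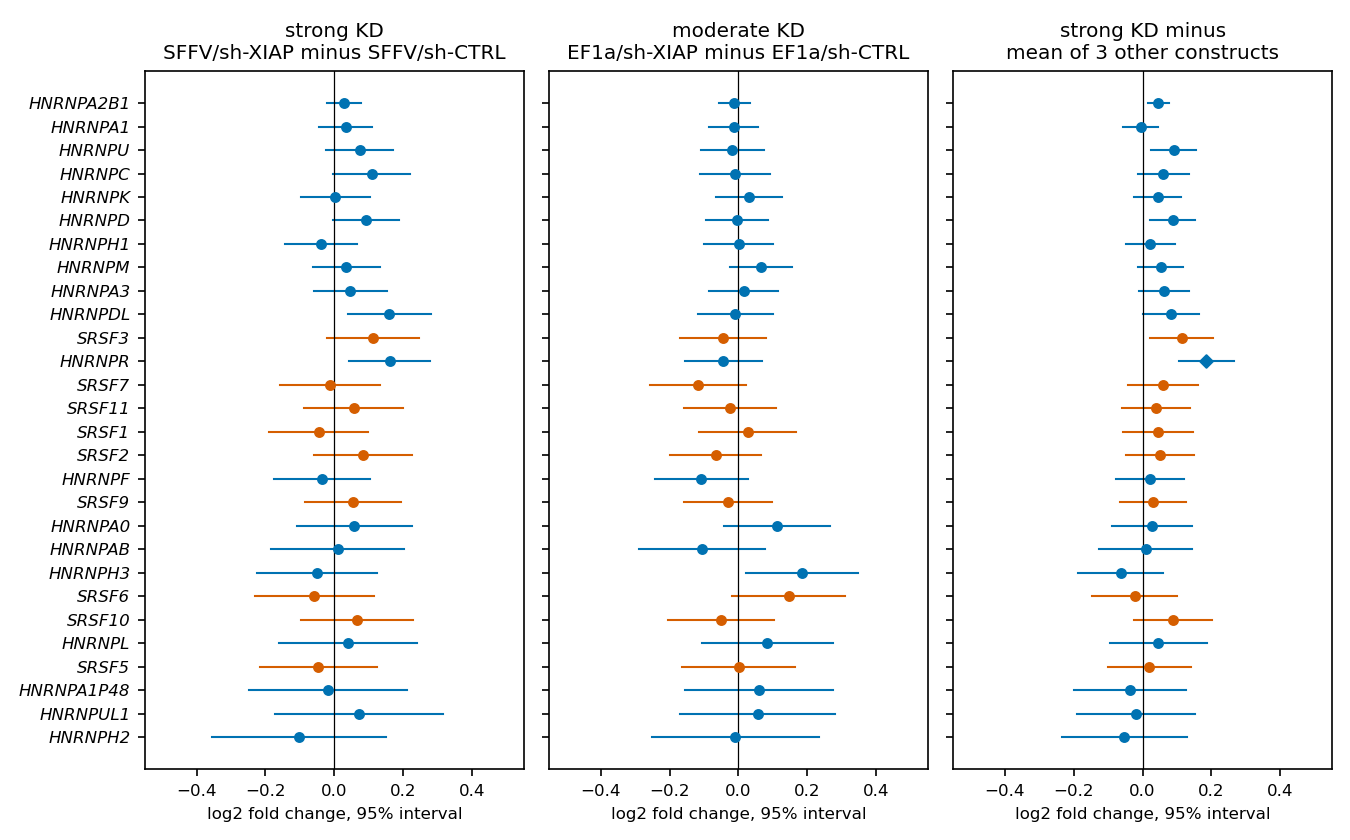
Fitted log2 fold change (points) with its 95% interval (lines) for the 28 members above 100 CPM, ordered by level from the top, in 3 comparisons of days 10 and 13; the diamond marks the member past the adjusted threshold. In the right panel HNRNPR stands at 0.18 with an interval of 0.10 to 0.26, and in the other panels the intervals lie between -0.35 and 0.35.

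HNRNPR rose in the strong KD when the 3 remaining constructs were averaged as the reference; it encodes an RNA-binding protein close to SYNCRIP that takes part in mRNA splicing, transport and stability. It was the only member called, 1 of 35, beside 148 of 17683 genes (0.837%). That count depends on the normalization: with each of the 21 libraries in turn as the reference of TMM, an alternative added after the data were seen, 1 to 4 members were called, HNRNPR with all 21 and HNRNPA2B1 with 13, and 2 to 5 members were called in 17 of the 21 fits that left out 1 sample. In the 6 strong-KD libraries HNRNPR stood at 481, 508 and 509 CPM on day 10 and at 454, 488 and 460 CPM on day 13. With SFFV/sh-CTRL it stood at 468 and 402 CPM on day 10 and at 453 and 404 CPM on day 13. EF1a/sh-CTRL had 456, 423 and 428 CPM on day 10 and 401, 426 and 412 CPM on day 13. EF1a/sh-XIAP had 429 and 403 CPM on day 10 and 381, 416 and 408 CPM on day 13. Thus 4 of the 6 strong-KD libraries were above every other library of these days, and 2 of the 15 others, 1 of SFFV/sh-CTRL and 1 of EF1a/sh-CTRL, were above the lowest strong-KD library.

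The log2 fold change of HNRNPR was 0.18 (SE 0.0396, 95% interval 0.10 to 0.26, adjusted p = 0.0192, limma-voom), from 421 ± 23.6 CPM (n = 15) to 483 ± 23.4 CPM (n = 6). An exact two-sided permutation test gave an unadjusted p = 0.000111 (smallest possible 1.84e-05). HNRNPR was picked for that test from the fit of these same libraries, and the test pooled the other constructs and both days, so it is no independent support. edgeR gave 0.19 with an adjusted p of 0.0653 and DESeq2 0.18 with 0.0836, and with total UMIs as a covariate the value was 0.18 (adjusted p = 0.143). Within day 10 it was 0.23 (adjusted p = 0.166) and within day 13 0.17 (adjusted p = 0.469), past the threshold on the former day alone. The means differed by 62.6 CPM, and each HNRNPR value rests on 127 to 585 UMIs. Mitochondrial genes took 1.92 ± 0.110% of the UMIs in the 6 strong-KD libraries and 1.82 ± 0.0459% in the 15 others, with 4 of the 6 above all others; the part of this in the HNRNPR result was not tested.

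At day 4 the SFFV/sh-CTRL libraries had 501, 458 and 461 CPM and the SFFV/sh-XIAP libraries 462 and 478 CPM, the same range, whereas EF1a/sh-CTRL had 407, 359 and 454 CPM and EF1a/sh-XIAP 398 and 437 CPM. Both SFFV groups thus lay above both EF1a groups at day 4 (control promoters, adjusted p = 0.996, limma; exact permutation p = 0.1, the smallest possible), and on days 10 and 13 the control promoters differed by 0.01 (SE 0.0605, adjusted p = 0.991). The change of the strong-KD effect on HNRNPR from day 4 to the later days was 0.20 on the log2 scale (SE 0.0934, adjusted p = 0.935) and did not pass; this comparison, added after the data were seen, called no member beside 4 of all genes (0.0226%), with 4 members and 5.2% of all genes at an unadjusted p under 0.05 and none called by edgeR or DESeq2. HNRNPU had the smallest p there on the higher side (0.23, SE 0.0739, adjusted p = 0.916) and SRSF8, a gene derived from a retrocopy of SRSF2, on the lower side (-0.54, SE 0.237, adjusted p = 0.935).

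**Figure D3:**
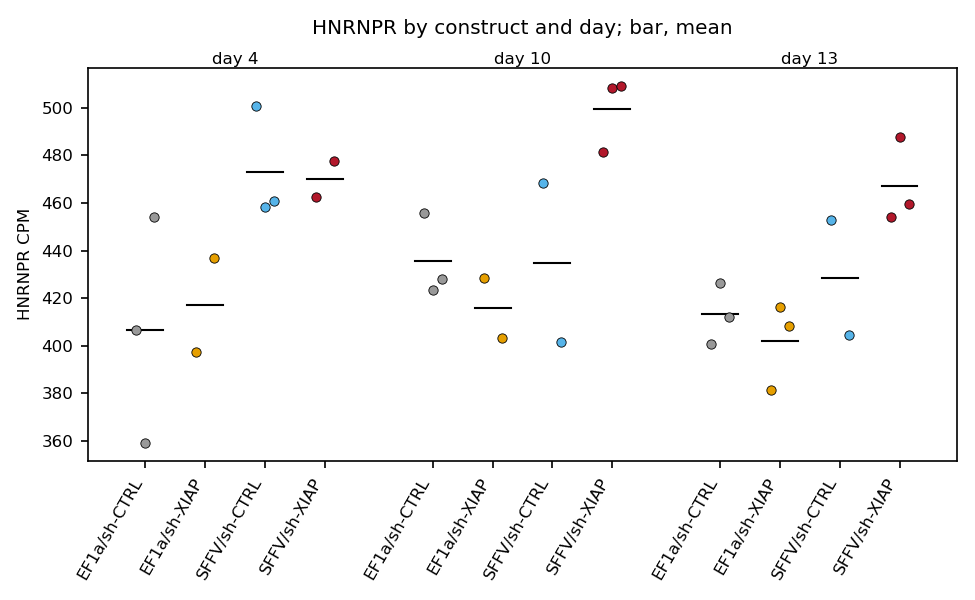
HNRNPR level (CPM; the vertical axis does not begin at 0) in each library by day and construct, with group means as bars. SFFV/sh-XIAP is the highest group at day 10 (481 to 509 CPM) and day 13 (454 to 488 CPM), and at day 4 SFFV/sh-CTRL is as high (458 to 501 CPM).

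HNRNPR lies on chromosome 1, chr1:23303771-23344336 on the minus strand (GRCh38, GENCODE 29). Its promoter is shown because it belongs to the only member called in a comparison of constructs. It is the RefSeq sequence from 250 bases before to 50 after the start (chr1:23344235-23344534, minus strand, GRCh38.p14), in which capitals mark the CCAAT motif, the GC box GGGCGG and the ETS core CCGGAA on either strand.
HNRNPR promoter: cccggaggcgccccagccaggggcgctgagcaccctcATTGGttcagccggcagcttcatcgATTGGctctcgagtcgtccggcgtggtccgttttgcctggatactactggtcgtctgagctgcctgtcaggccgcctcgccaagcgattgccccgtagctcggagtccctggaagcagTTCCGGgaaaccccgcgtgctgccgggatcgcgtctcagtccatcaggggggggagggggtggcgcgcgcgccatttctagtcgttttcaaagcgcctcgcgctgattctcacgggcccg
The window holds 2 matches to CCAAT and 1 to CCGGAA, none of them overlapping, and no GGGCGG. Promoters were found for 34 of the 38 members, 48 in all; HNRNPA1, HNRNPA1P48, HNRNPCL3 and SRSF2 had none. CCAAT was in 24 of the 48 (50%), beside 34.6% of all 35116 promoters of this length, GGGCGG in 28 (58.3%, beside 45.0%), CCGGAA in 9 (18.8%, beside 17.2%) and TATAAA in 6 (12.5%, beside 11.5%). The G and C content had a median of 64% in the members' promoters and 58.7% in all.

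Among the other members, HNRNPA2B1, HNRNPU, HNRNPD (a binder of AU-rich elements), SRSF3 and HNRNPDL also had an unadjusted p under 0.05 against the other constructs (6.46% of all genes had one), all on the higher side, and none passed after adjustment. HNRNPA2B1 had 0.05 (SE 0.0151, adjusted p = 0.346), with 2385 to 2484 CPM in strong KD and 2191 to 2524 CPM in the others, which overlapped. It passed in 17 of the 21 fits that left out 1 sample and in none with edgeR, DESeq2 or limma-trend. On day 13 alone HNRNPA2B1 was the member called (0.08, adjusted p = 0.111), and HNRNPR on day 10 alone. On the lower side the smallest p was that of SRSF8 (-0.12, SE 0.106, adjusted p = 0.931), at 76.8 ± 11.4 CPM against 84.4 ± 13.5 CPM (exact permutation test, two-sided, p = 0.242). The members' median was 0.04, with 25 of 35 above 0, beside -0.01 over all genes. The other constructs' samples enter several of these comparisons, so their values are not independent of each other.

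The 2 control constructs asked whether the promoter alone changed the members. None passed on days 10 and 13 (1 gene in all, 0.00566%), and no member had an unadjusted p under 0.05 or a call by edgeR or DESeq2. SRSF1 had the smallest p on the SFFV side, with 0.15 (SE 0.0741, adjusted p = 0.923): its libraries lay at 400 to 419 CPM with SFFV/sh-CTRL (n = 4) and at 324 to 417 CPM with EF1a/sh-CTRL (n = 6; exact permutation test, two-sided, p = 0.0905). HNRNPDL had -0.12 (SE 0.0612, adjusted p = 0.923), with libraries at 477 to 574 CPM against 511 to 591 CPM (exact permutation test, two-sided, p = 0.0952). The 0.16 of HNRNPDL under strong KD was measured against these same SFFV/sh-CTRL libraries, whose 2 samples of day 10 averaged 478 CPM.

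At day 4 the same 3 comparisons were fitted on 10 samples, and none of the members passed with limma, edgeR or DESeq2. The whole table had 2 calls under strong KD (0.0109%), 9 under moderate KD (0.0491%) and 3 between the control promoters (0.0164%), and members with an unadjusted p under 0.05 numbered 3, 2 and 5 of 35, where 4.73%, 4.5% and 4.35% of all genes had one. Under strong KD, SRSF8 was at 96.4 ± 9.69 CPM (n = 2) against 68.1 ± 12.6 CPM (n = 3), a log2 fold change of 0.46 (SE 0.180, adjusted p = 0.979), and HNRNPU at 775 ± 30.7 CPM against 858 ± 15.5 CPM, -0.14 (SE 0.0562, adjusted p = 0.979). On days 10 and 13 both means had the opposite order: HNRNPU was at 837 ± 90.2 CPM in strong KD and 796 ± 40.0 CPM in its control, and SRSF8 at 76.8 ± 11.4 and 83.5 ± 22.3 CPM. Under moderate KD, HNRNPM, which binds GU-rich RNA, was at 657 ± 14.8 CPM (n = 2) against 596 ± 22.0 CPM (n = 3), 0.15 (SE 0.0573, adjusted p = 0.976). SRSF5, an SR protein, was at 205 and 233 CPM against 239 ± 28.4 CPM, -0.17 (SE 0.104, adjusted p = 0.976). Between the control promoters, HNRNPR was at 473 ± 23.8 CPM with SFFV and 407 ± 47.4 CPM with EF1a, 0.19 (SE 0.0702, adjusted p = 0.996), without overlap, and SRSF5 was at 209 ± 11.7 CPM against 239 ± 28.4 CPM, -0.22 (SE 0.0969, adjusted p = 0.996). With 2 against 3 samples or 3 against 3 the exact permutation test cannot go below 0.1, the value it gave for HNRNPM, HNRNPR and HNRNPU.

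Across time, HNRNPA1L2 rose. It is a retrocopy of HNRNPA1, and it was the only member called between day 4 and day 13 in the fit over all 31 samples, 1 of 35 beside 91 of 17676 genes (0.515%). On day 4 it stood at 49.8, 26.8 and 50.3 CPM with EF1a/sh-CTRL, at 30.9, 43.6 and 42.3 CPM with SFFV/sh-CTRL, at 34.0 and 38.8 CPM with EF1a/sh-XIAP, and at 45.4 and 39.7 CPM with SFFV/sh-XIAP. On day 13 the libraries were at 58.0, 62.7 and 56.1 CPM with EF1a/sh-CTRL, at 42.7 and 59.8 CPM with SFFV/sh-CTRL, at 47.7, 47.1 and 65.8 CPM with EF1a/sh-XIAP, and at 63.9, 59.7 and 58.7 CPM with SFFV/sh-XIAP. All 3 libraries of EF1a/sh-CTRL and all 3 of SFFV/sh-XIAP on day 13 were above every day 4 library, and the other constructs overlapped with day 4. Day 10 lay between, at 38.7 to 69.8 CPM with a mean of 50.5 ± 8.73 CPM (n = 10).

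The log2 fold change of HNRNPA1L2 from day 4 to day 13 was 0.50 (SE 0.110, 95% interval 0.27 to 0.72, adjusted p = 0.0281, limma-voom), from 40.2 ± 7.78 CPM (n = 10) to 56.6 ± 7.52 CPM (n = 11). It was past the threshold in all 40 alternatives, edgeR (adjusted p = 0.0202), DESeq2 (0.0193) and each fit without 1 sample included. Sampling day may also be a processing batch, and day and batch cannot be told apart. HNRNPA1 itself was at 1050 ± 48.9 CPM on day 4 and 1082 ± 45.8 CPM on day 13, and HNRNPA1L2 went from 3.81 ± 0.631 to 5.22 ± 0.599 UMIs per 100 UMIs of HNRNPA1. The 71 pseudogenes of HNRNPA1 went from 37.2 ± 2.14 to 40.2 ± 2.95 per 100, and all genes annotated as pseudogenes together from 183763 ± 9874 to 187850 ± 8158 CPM.

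**Figure D4:**
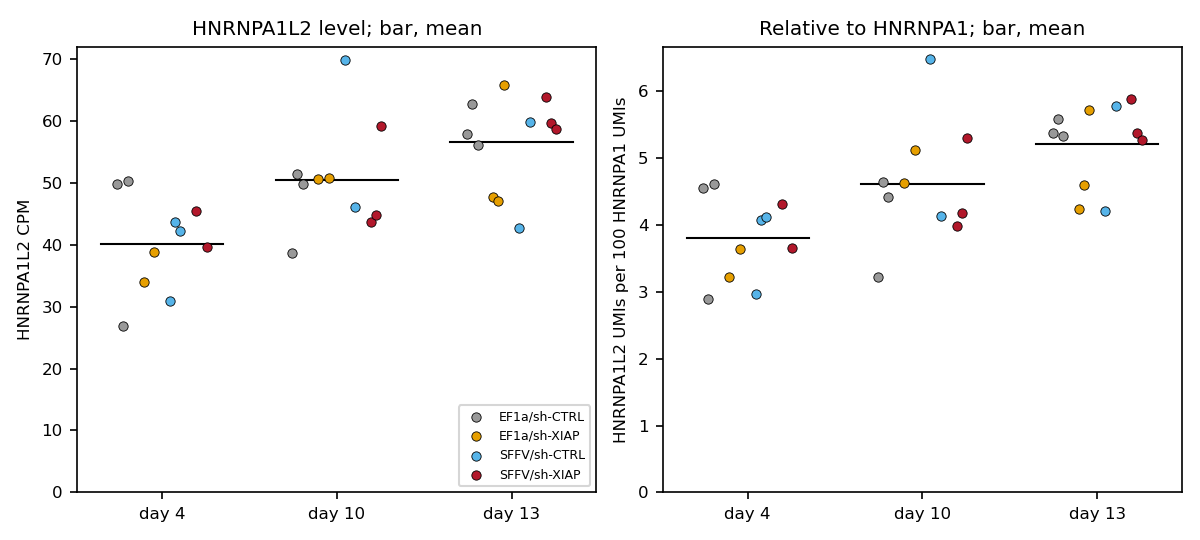
HNRNPA1L2 on each day as CPM (left) and as UMIs per 100 UMIs of HNRNPA1 (right), 1 point per library coloured by construct, with the mean of the day as a bar. Means rise from 40.2 to 50.5 and 56.6 CPM, and from 3.81 to 4.61 and 5.22 per 100, while the libraries of neighbouring days overlap.

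HNRNPA1L2, HNRNPA1 and HNRNPA1P48, which the annotation calls protein coding although its name marks a pseudogene, share long stretches of sequence, so that counts may have been split between them. In the last 500 bases of its transcript, 62.5% of the runs of 50 bases of HNRNPA1L2 were also in another gene, and 84.5% of those of HNRNPA1P48; over the 9 coding transcripts of HNRNPA1 the share ran from 0 to 100%. Of the 38 members, 20 had no such shared run. HNRNPCL1, HNRNPCL2, HNRNPCL3 and HNRNPCL4, copies of HNRNPC, shared 46.3% to 100% of theirs, and SRSF1 shared up to 84.0% with 1 other gene. HNRNPL shared 12.9% to 67.6% over its transcripts, and HNRNPC up to 56.5% and HNRNPH1 up to 44.5% in some of theirs; values of these members are uncertain in the same way.

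The 114 annotated pseudogenes of members took many reads. Those of HNRNPA1 had 8715 UMIs beside 22274 of the gene, the 8 of HNRNPC had 6560 beside 16118, and the 16 of HNRNPA3 had 2780 beside 12352. HNRNPR had 1 pseudogene with 368 UMIs beside 9115, and adding these left its fold change against the other constructs at 0.19 (adjusted p = 0.018). With the pseudogene counts added, HNRNPA1 also passed between day 4 and day 13, at 0.07 (SE 0.020, adjusted p = 0.183).

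The remaining members did not pass over time. Between day 4 and day 13, 6 of 35 members had an unadjusted p under 0.05, as had 6.46% of all genes. Besides HNRNPA1L2 these were HNRNPA1P48, HNRNPA3 and HNRNPCL1 on the higher side and HNRNPK and SRSF5 on the lower. HNRNPA1P48 had 0.14 (SE 0.0657, adjusted p = 0.719, limma). On the lower side between day 4 and day 13, HNRNPK had the smallest p, with -0.08 (SE 0.0309, adjusted p = 0.557), from 791 ± 36.7 CPM to 739 ± 37.0 CPM. Between day 10 and day 13 of the later fit no member passed, beside 8 genes in all (0.0452%); 1 member and 4.96% of all genes had an unadjusted p under 0.05, and edgeR and DESeq2 called none. HNRNPA3, a relative of HNRNPA1, had 0.07 (SE 0.0335, adjusted p = 0.983), from 591 ± 28.7 CPM to 616 ± 41.1 CPM, and HNRNPR had -0.06 (SE 0.0373, adjusted p = 0.983). Day 10 against day 4, added after the data were seen, called no member beside 46 genes (0.26%), with 3 members and 6.3% of all genes at an unadjusted p under 0.05; HNRNPA1P48 had 0.16 (SE 0.0694, adjusted p = 0.726), HNRNPA1L2 had 0.26 (SE 0.120, adjusted p = 0.738) and SRSF7 had -0.09 (SE 0.0433, adjusted p = 0.753). No other tool was run on that comparison. The comparisons of days share samples.

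None of the 5 most abundant SRSF genes passed between constructs. On days 10 and 13, SRSF3 was at 482 ± 38.7 CPM with EF1a/sh-CTRL, 467 ± 30.9 CPM with EF1a/sh-XIAP, 468 ± 46.0 CPM with SFFV/sh-CTRL and 501 ± 43.7 CPM with SFFV/sh-XIAP. SRSF7 was at 402 ± 31.5, 366 ± 33.6, 405 ± 46.2 and 418 ± 19.3 CPM in the same order of constructs, lowest with the moderate KD. SRSF11 was at 403 ± 33.7, 398 ± 26.9, 396 ± 34.9 and 411 ± 27.7 CPM. SRSF1 was at 373 ± 36.5, 376 ± 19.1, 410 ± 9.80 and 401 ± 39.6 CPM. SRSF2 was at 400.1 ± 37.6, 373 ± 22.7, 371 ± 38.5 and 392 ± 30.0 CPM, so that each of these genes overlapped between all constructs. The same held for HNRNPA1, at 1115 ± 50.9, 1077 ± 67.6, 1060 ± 45.7 and 1099 ± 17.95 CPM, and for HNRNPC, at 789 ± 41.3, 791 ± 38.0, 748 ± 57.2 and 795 ± 46.4 CPM.

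The other genes of splicing were counted by fixed lists. Of 55 other splicing regulators tested, 2 passed, both higher in strong KD against the other constructs, where 0.837% of all genes passed: ILF2 (0.14, SE 0.0376, adjusted p = 0.113), and the RNA helicase DDX5 (0.07, SE 0.0220, adjusted p = 0.237). No gene of that list passed in another comparison. Of 61 core spliceosome genes and of 17 kinases, phosphatases, methyltransferases and import receptors that act on SR proteins, none passed in any of the 12 comparisons. The spliceosome list had 42 of 61 genes above 0 and a median of 0.05 against the other constructs, beside -0.01 over all genes, which is described here and not tested.

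Co-variation within the families was weak. After removal of each group's mean, the correlation between pairs of HNRNP genes above 100 CPM had a median of 0.12 over 31 libraries (171 pairs, -0.64 to 0.72), and between pairs of SRSF genes a median of 0.07 (36 pairs, -0.54 to 0.59). All pairs of the 1927 genes at this level had a median of 0.04. All pairs come from the same libraries and share their depth: with log2 total UMIs removed as well, the medians were 0.03 for HNRNP, 0.02 for SRSF and 0.01 for all genes. By day the HNRNP median was 0.17, 0.18 and 0.08 on days 4, 10 and 13. By construct it was 0.08 in the strong KD and 0.18 in its control, and 0.20 in the moderate KD and 0.19 in its control, each over 7 to 9 libraries. The SRSF median was 0.13, 0.12 and -0.11 on days 4, 10 and 13. By construct the SRSF median was 0.23 in the strong KD and 0.05 in its control. In the moderate KD it was 0.14, and -0.06 in its control. Before depth was removed, the most alike pair of members was HNRNPD with HNRNPAB (0.72, and 0.59 without depth) and the most opposed HNRNPC with HNRNPH1 (-0.64, and -0.65 without depth). Without depth this order changed: HNRNPD with HNRNPA3 had 0.63 and SRSF5 with HNRNPA3 had -0.68.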

How the data were processed

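The authors deposited 1 table of raw UMI counts per Ensembl gene and sample, without normalization. The submitters' processing notes name STAR 2.6.0a and the builds hg38, GRCh38, mm10 and GRCm38 without their roles; the sources used here name neither annotation nor counter. Gene names and types came from GENCODE 29, which may not be the authors' annotation and holds 29928 of the identifiers. Groups were read from the sample titles and none of the 31 samples was left out. The paper excluded samples that were outliers in a principal component analysis, and some replicate numbers are absent from the titles. Whether such samples were removed before deposit is not stated, and spreads and p-values may depend on it. Genes over 1 CPM in 1/3 of samples or more were normalized by TMM (edgeR 4.0.16) and tested with limma-voom (limma 3.58.1, R 4.3.3), in a model of construct and day, with Benjamini-Hochberg adjusted p over all genes tested and a threshold of 0.25. Fits used the 21 samples of days 10 and 13, all 31, or the 10 of day 4. edgeR's quasi-likelihood test and DESeq2 1.42.0 were alternatives. Means are CPM ± SD; correlations used log2 CPM with a prior count of 2. The procedure was tested on simulated counts.

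Members, lists and comparisons were chosen with earlier results of these data known. Members named with statistics were those past the threshold or, in a direction with none, the 1 with the smallest p; the 5 most abundant of each family were named by level. HNRNPDL, HNRNPA2B1, HNRNPD, HNRNPU and SRSF3 against the other constructs, HNRNPDL and HNRNPR in further comparisons, and HNRNPA1L2 at day 10 were named after their values were seen. So were HNRNPA1P48, HNRNPA3, HNRNPCL1 and SRSF5 between day 4 and day 13. Samples of a group differed by more than counting error alone (chi-square per gene 1.07 to 2.43, median 1.19), so each was kept as a library of its own. This cannot tell whether the samples of a group came from the same transduction.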

Additional observations from a re-analysis of the deposited data

Results flagged for a closer look

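Of 88 groups of libraries examined (22 measures in the 4 constructs on days 10 and 13), 6 held a library far from the rest of its group, where chance gives about 1 in 20. HNRNPA1L2 in EF1a/sh-XIAP was highest at 65.8 CPM in a day 13 library, with the next at 50.8 CPM. SRSF3 was lowest at 412 CPM in a day 10 library of EF1a/sh-XIAP, with the next at 473 CPM, and at 399 CPM in a day 13 library of SFFV/sh-CTRL, with the next at 486 CPM. HNRNPM was lowest at 614 CPM in a day 13 library of SFFV/sh-XIAP, with the next at 666 CPM. HNRNPDL, at 527 CPM, and the HNRNP sum, at 11104 CPM, were lowest in the same day 10 library of SFFV/sh-XIAP, the shallowest of the series, with the next at 571 and 11658 CPM.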

How the results depend on the processing

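Against the other constructs the 1 call became 5 without the filter on low counts, 4 without the 2 shallowest libraries and 4 with EF1a/sh-CTRL day 13 replicate 2 as the TMM reference (both added after the data were seen), and 1 to 5 in the fits that left out 1 sample (5 without the second day 10 sample of SFFV/sh-XIAP, the shallowest library); HNRNPR was called in all 21 of these, HNRNPA2B1 in 17, HNRNPD and HNRNPU in 5 each and SRSF3 in 1. The full fit took SFFV/sh-XIAP day 13 replicate 1 as its TMM reference, all 21 of the fits without 1 sample took another library, and over the 21 possible references alone the median fold change of all genes ran from -0.0089 to 0.013 and the members called from 1 to 4. In the other comparisons of constructs on days 10 and 13 no reference gave a called member. The strong KD had 1 call, HNRNPR, with both sh-CTRL constructs as control (0.17, adjusted p = 0.0944). The strong minus the moderate KD had 0 to 1 with 1 sample left out; the call was HNRNPA2B1, without the third day 13 sample of EF1a/sh-XIAP. Day 13 against day 10 had 1 without the filter, HNRNPA2B1 at 0.03 (SE 0.0033, beside 0.0141 with the filter). The reason for the smaller SE was not tested. Day 13 against day 4 had 2 with pseudogene counts added. HNRNPH2 under strong KD turned to 0.065 on day 10 alone and ran from -0.21 to 0.017 with 1 sample left out, the latter without the first day 13 sample of SFFV/sh-CTRL, and SRSF8 against the other constructs to 0.00085 with all 31 samples; their causes were not tested. With a replicate block HNRNPR against the other constructs was 0.18 (adjusted p = 0.0516) and HNRNPA1L2 0.50 (0.0261), and no member count changed; samples with the same replicate number were no more alike (mean correlation -0.00053 over 149 pairs, against 0.00029 over 290). Over all its alternatives the adjusted p of HNRNPR ran from 0.000479 (without the filter) to 0.469 and that of HNRNPA1L2 from 0.00995 to 0.102. Counts over all genes moved more: the strong KD had 14 calls with limma-voom, 49 with edgeR, 0 with DESeq2, 107 with both controls, 7 with the block and 2 to 45 with 1 sample left out; the moderate KD had 3, and 0 with DESeq2 and 19 without the filter; against the other constructs 148 became 83 with DESeq2, 68 with limma-trend, 72 with depth as a covariate and 56 to 216 with 1 sample left out; day 13 against day 4 had 91, and 31 with limma-trend; day 13 against day 10 had 8, and 68 without the filter; strong KD at day 4 had 2, and 25 with the block. Adding pseudogenes raised the HNRNP sums to 12267 to 12739 CPM by construct.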
